A study of Mus musculus with 18 samples.

Results

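The genes described here are 35 members of the integrated stress response and the unfolded protein response, chosen by symbol from the 55487 genes counted in 18 libraries of mouse T cells. They form an ATF4 arm of 17 genes and an endoplasmic reticulum arm of 18 genes, and all 35 had enough counts to be tested among the 12693 genes that passed a filter on low counts. The integrated stress response starts when kinases phosphorylate the translation initiation factor eIF2, which lowers general protein synthesis while the transcription factor ATF4 is still translated and turns on genes for amino acid synthesis, redox defence and feedback. The unfolded protein response is read by sensors in the endoplasmic reticulum membrane and raises chaperones, disulfide isomerases and degradation factors for proteins that enter the secretory path. Activated T cells are known to need ATF4 for amino acid and one-carbon supply during growth, and the XBP1 branch when secretion is high.

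Spleen T cells were sorted by flow cytometry. All groups were then stimulated for 72 h through plate-bound anti-CD3 at 2 µg/ml, with added anti-CD28 at 2 µg/ml and with IL-2, which was used at 10 ng/ml. Every mouse was labelled Foxp3 YFP/cre. The libraries labelled WT came from Foxp3 YFP/cre mice and those labelled KO from Foxp3 YFP/cre mice that are also Ebi3 -/-, and each genotype has 3 libraries of CD8, of CD4 and of Treg cells. Ebi3 encodes a subunit of the cytokines IL-27 and IL-35. Age and the deleted part of Ebi3 are not in the labels. Nor do they tell whether replicates are separate animals or separate cultures, and a p-value here thus measures no more than the spread among these samples, which may be technical. WT, KO and Treg below stand for these labels.

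Transcripts were counted by 3' tags, collapsed on unique molecular identifiers, and total counts were 1358671 to 2255950 in the CD4 and CD8 libraries and 841892 to 1089003 in the Treg libraries. Levels are given as CPM, counts scaled to a common library size, and the limit that a count of 0 allows, taken as 3 counts, lay at 1.312 to 3.888 CPM depending on the library, for counting error only. Ebi3 itself had 58, 55 and 60 counts in CD8 WT and 51, 47 and 71 in CD8 KO, 83, 80 and 70 in CD4 WT and 47, 50 and 48 in CD4 KO, and 27, 21 and 42 in Treg WT and 24, 36 and 20 in Treg KO. A 3' tag outside the deleted part does not check the genotype. Foxp3, which defines Treg cells, had 0 or 1 count in every library, those labelled Treg included. The Treg libraries held both coreceptors, with Cd4 at 34.4 to 68 CPM against 100 to 157 CPM in CD4 libraries and Cd8a at 24.9 to 46.7 CPM against 143 to 244 CPM in CD8 libraries. Treg libraries also detected more genes (20034 to 20596 against 16193 to 17338) and 218 to 240 olfactory receptor genes against 9 to 23. The difference between Treg WT replicates 1 and 2 was smaller than sampling noise, as was that between Treg KO replicates 1 and 3, and each pair was counted as 1 sample. Of the 9 pairs of a Treg WT with a Treg KO library, 4 also differed by less than the sampling noise.

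Sequence before the start site is shown for the windows that hold a full element of these responses. The members were chosen as known genes of these responses, so elements known from such genes were likely in their windows. The shares below are thus no independent result. RefSeq windows of 250 bases upstream of the start (GRCm38.p6) were found for 31 of the 35 members, some with more than 1 start, and both strands were searched. The endoplasmic reticulum stress response element, which is CCAAT followed after 9 free bases by CCACG and is bound by NF-Y with ATF6, was in 7 of 15 windows of the endoplasmic reticulum arm (46.7%), in 0 of 19 windows of the ATF4 arm and in 0.113% of all 32851 windows. Capitals mark the letters that match, read 5′ to 3′ on the strand of the gene, so that a match on the other strand reads in reverse complement. A match within an annotated exon is shown in at most 30 bases.
Hspa5, chr2:34772020-34772048, plus strand: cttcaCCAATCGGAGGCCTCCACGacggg
Hsp90b1, chr10:86705608-86705686, minus strand: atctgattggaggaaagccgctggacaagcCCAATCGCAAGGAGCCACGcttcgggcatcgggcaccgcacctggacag
Hsp90b1, chr10:86705503-86705581, minus strand: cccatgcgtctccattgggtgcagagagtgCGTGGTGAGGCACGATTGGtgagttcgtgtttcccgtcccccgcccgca
Pdia6, chr12:17266461-17266539, plus strand: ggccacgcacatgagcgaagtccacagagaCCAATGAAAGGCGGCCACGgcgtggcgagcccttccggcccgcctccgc
Canx, chr11:50325770-50325848, minus strand: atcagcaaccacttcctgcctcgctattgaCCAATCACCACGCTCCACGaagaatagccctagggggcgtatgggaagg
Calr, chr8:84847045-84847123, minus strand: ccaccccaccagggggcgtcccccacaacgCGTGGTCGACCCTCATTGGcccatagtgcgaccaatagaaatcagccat
Creld2, chr15:88819490-88819568, plus strand: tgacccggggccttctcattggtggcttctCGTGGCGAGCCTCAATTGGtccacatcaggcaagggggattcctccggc
Dnajc3, chr14:118937797-118937875, plus strand: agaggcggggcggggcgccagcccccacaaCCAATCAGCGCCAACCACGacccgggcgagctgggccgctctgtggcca

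The second form of that element, ATTGG and CCACG with 1 free base between them, was in the window of Herpud1 and in 0.0304% of all windows. The C/EBP-ATF response element TGATGNAA, the site of ATF4 with a C/EBP partner, was in 4 of 19 ATF4 arm windows (21.1%), those of Asns, Chac1, Nupr1 and Vldlr, against 3.45% of all windows, and also in that of Herpud1. The letters TGACGTGG, a site of XBP1, were in no window of either arm and in 0.563% of all windows. The short motif CCACG, which is part of both stress response elements, was in 80% of endoplasmic reticulum arm windows, 57.9% of ATF4 arm windows and 28.3% of all windows. These matches are letters in a window and do not show binding.
Herpud1, chr8:94386347-94386417, plus strand: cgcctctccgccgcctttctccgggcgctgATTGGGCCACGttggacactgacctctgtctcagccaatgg
Herpud1, chr8:94386287-94386354, plus strand: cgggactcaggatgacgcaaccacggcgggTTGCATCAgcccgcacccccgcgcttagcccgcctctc
Asns, chr6:7693214-7693243, minus strand: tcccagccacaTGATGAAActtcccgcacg
Chac1, chr2:119351019-119351086, plus strand: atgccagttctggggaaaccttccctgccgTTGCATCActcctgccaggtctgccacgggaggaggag
Nupr1, chr7:126625562-126625591, minus strand: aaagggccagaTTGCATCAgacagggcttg
Vldlr, chr19:27216809-27216838, plus strand: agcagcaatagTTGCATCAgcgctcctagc

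The counting table has 36 rows for the 35 members, since Ddit3 has a second, overlapping row with 1 to 8 counts in CD4 and CD8 libraries and 14 to 27 in Treg libraries, which was left out. The 3' ends of 7 members lie on another gene (Ddit3 on Mars, Aldh1l2 on D10Wsu102e, Manf on Dcaf1, Hsp90b1 on 1810014B01Rik, Pdia6 on Atp6v1c2, Ppp1r15a on Tulp2 and Shmt2 on Ndufa4l2). Because the strand setting of the counting is not given in the sources used here, tags of such partners cannot be told apart, and their own rows ranged from 1 count (Ndufa4l2) to 4616 counts (D10Wsu102e) over all libraries. Psat1 holds the processed pseudogene Gm3329 and is uncertain for that reason.

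Members differed most often between the Treg libraries and the others. In the ATF4 arm 3 of 4 genes grouped as feedback genes (Trib3, Ppp1r15a and Chac1) were higher in Treg libraries in each comparison. Of the amino acid synthesis genes 3 of 4 in WT and 4 of 4 in KO were lower. Over all genes 23.1% to 27.1% were higher and 16.6% to 20.1% lower, depending on the comparison. In the endoplasmic reticulum arm 10 of 18 genes were lower against CD4 in WT and 10 in KO, where 16.6% and 18.7% of all genes were lower, and 12 and 11 were lower against CD8, where 20.1% and 17.4% of all genes were. All 6 Treg libraries lay above all 12 CD4 and CD8 libraries for 7 of the 17 ATF4 arm genes and below them for 4, against 18.1% and 11.4% of all genes tested. Of the 18 endoplasmic reticulum arm genes 0 lay wholly above and 9 wholly below. Because these are bulk samples, fewer cells of a type and less RNA per cell cannot be told apart.

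**Figure D1:**
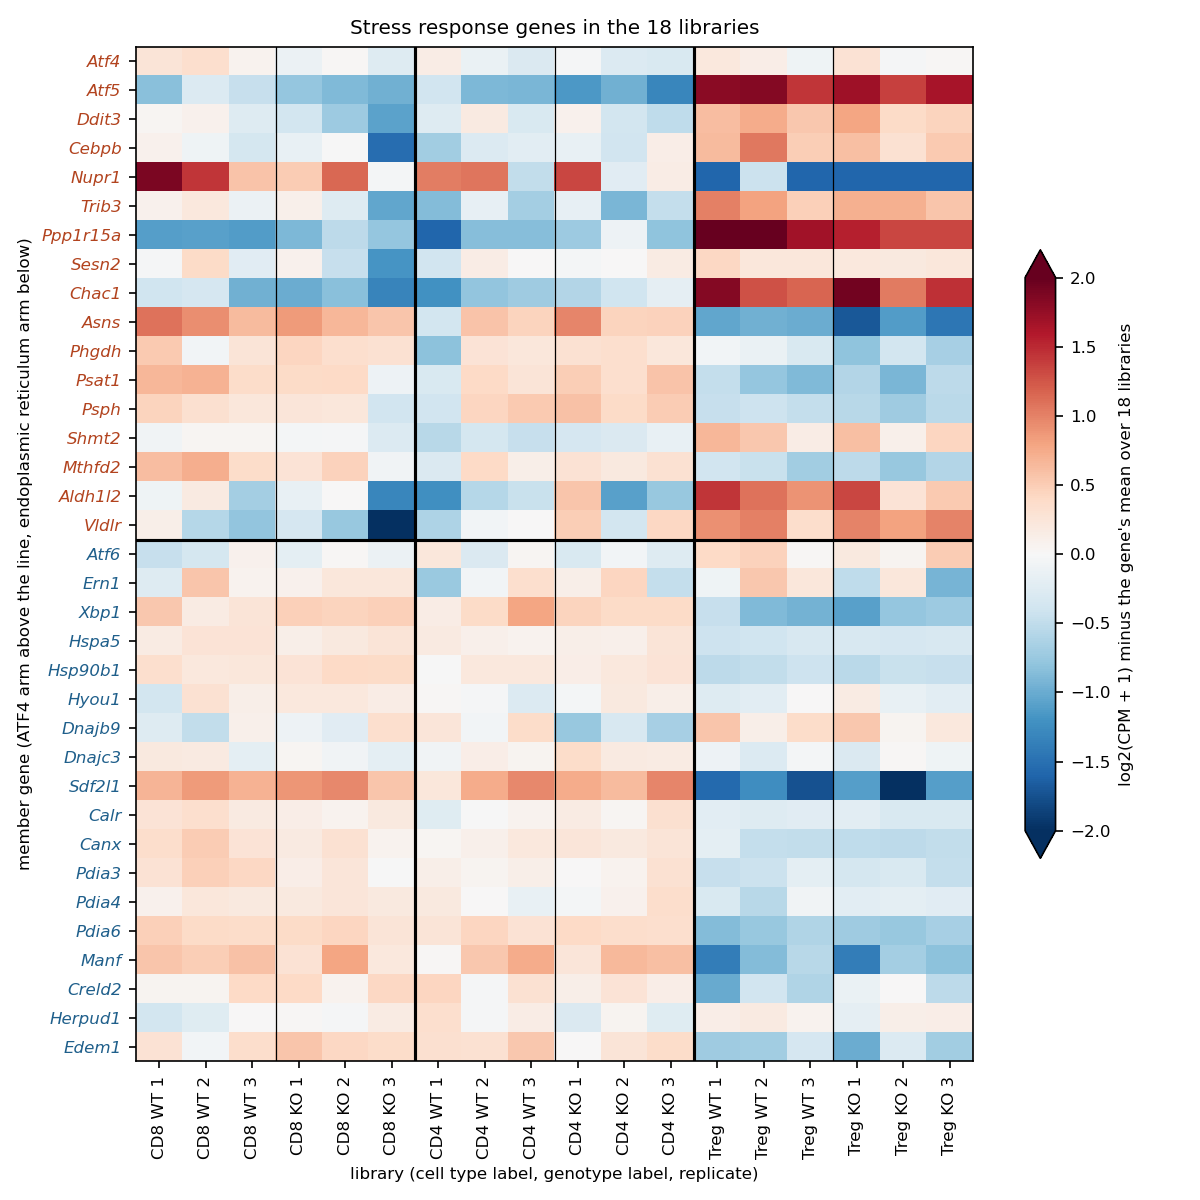
Level of each of the 35 members (rows) in each of the 18 libraries (columns), as log2(CPM + 1) minus the gene's mean over all libraries, in red above and in blue below that mean. The 6 Treg columns are red for Atf5, Ppp1r15a and Chac1, blue for Asns and Psat1, and blue for most genes under the horizontal line, the endoplasmic reticulum arm.

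Among the transcription factors of the ATF4 arm, Atf4 (ENSMUSG00000042406, chr15:80255184-80257541; positions of genes are on GRCm38) was at 905.9, 856.6 and 731.1 CPM in Treg WT, at 926.5, 983.2 and 816.8 CPM in CD8 WT and at 865.6, 709.9 and 637.2 CPM in CD4 WT. These ranges overlap, and no comparison of Treg with CD4 or CD8 libraries passed the test for Atf4 (Treg against CD4, log2 fold change 0.13, SE 0.12, adjusted p = 0.426 in WT and 0.27, SE 0.12, adjusted p = 0.0826 in KO). ATF4 is controlled mostly at translation, so its mRNA level is not its activity.
Atf5 (ENSMUSG00000038539, chr7:44812256-44816658), a relative of ATF4 that is translated under the same stress, was at 369.3, 378.5 and 285.8 CPM in Treg WT and 342.8, 272.9 and 332.7 CPM in Treg KO. It was at 80.15, 55.57 and 55.12 CPM in CD4 WT, 46.79, 53.31 and 42.11 CPM in CD4 KO, 58.22, 86.56 and 75.65 CPM in CD8 WT and 61.22, 56.66 and 53.17 CPM in CD8 KO. No Treg library came near the others. The difference from CD4 was 5.28-fold in WT (log2 2.40, SE 0.16, adjusted p = 8.8e-11) and 6.48-fold in KO (log2 2.70, SE 0.17, adjusted p = 1.06e-11).
Ddit3, which encodes the pro-apoptotic factor CHOP, was at 120.5, 131.5 and 114.7 CPM in Treg WT against 65.58, 88.92 and 63.55 CPM in CD4 WT, and passed the test in all 4 comparisons of Treg with CD4 or CD8 (log2 0.66 to 1.24). Cebpb, a dimer partner of ATF4, was 41.7 ± 7.64 CPM (SD, n = 2) in Treg WT and 19.3 ± 3.54 CPM (SD, n = 3) in CD4 WT (log2 1.11, SE 0.29, adjusted p = 0.00389). In KO it was 34.7 ± 4.43 CPM (SD, n = 2) in Treg and 23.4 ± 4.41 CPM (SD, n = 3) in CD4, which did not pass the test (log2 0.58, SE 0.29, adjusted p = 0.105).
Nupr1, a small stress-induced chromatin protein, had 1 count over the 3 Treg WT libraries and 0 over the 3 Treg KO libraries, against 20 in CD4 WT, 23 in CD4 KO, 41 in CD8 WT and 21 in CD8 KO. In WT its level in Treg was 10.1 times lower than in CD4 (95% exact counting interval 1.61 to 418, for counting error only) and 18 times lower than in CD8 (3.06 to 730). The fitted test did not pass for Treg against CD4 in WT (adjusted p = 0.0528) and passed in the other comparisons (adjusted p = 0.0148 against CD4 in KO, and 0.00499 and 0.0171 against CD8 in WT and KO). In KO it was at least 3.24-fold lower than in CD4 and at least 3.19-fold lower than in CD8, with Treg set at the floor of 3 counts over the group.

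The 4 genes grouped as feedback genes include Chac1 and Sesn2, which act on glutathione and on mTORC1. Of the 4 genes, 3 were higher in Treg libraries in all 4 comparisons. Ppp1r15a (ENSMUSG00000040435, chr7:45522916-45526268), which encodes GADD34, the subunit that brings a phosphatase to eIF2 and ends the response, was at 68.68, 62.68 and 43.96 CPM in Treg WT and at 40.12, 34.47 and 34.37 CPM in Treg KO. In the 12 CD4 and CD8 libraries it stayed between 3.643 and 12.02 CPM. The difference from CD4 was 9.35-fold in WT (log2 3.22, SE 0.27, adjusted p = 1.46e-09) and 4.12-fold in KO (log2 2.04, SE 0.27, adjusted p = 8.15e-07).
Chac1, an enzyme that degrades glutathione, was at 67.39, 45.47 and 42.05 CPM in Treg WT and at 71.73, 38.3 and 51.56 CPM in Treg KO, against 6.706 to 15.91 CPM in the other libraries. Its difference from CD4 was 5.19-fold in WT (log2 2.38, SE 0.27) and 3.72-fold in KO (log2 1.90, SE 0.24).
Trib3, a pseudokinase that restrains ATF4 and CHOP, was at 65.94 to 95.9 CPM in Treg libraries and at 22.51 to 54.99 CPM in the others, and passed the test in all 4 comparisons (log2 0.67 to 1.26). Sesn2, an inhibitor of mTORC1 signalling, was at 28.72 to 33.69 CPM in Treg libraries and 10.54 to 33.1 CPM in the others, and passed none of the 4.

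The metabolic targets divided. Asns (ENSMUSG00000029752, chr6:7675169-7693254), asparagine synthetase and a standard readout of ATF4, was at 31.1, 33.18 and 32.49 CPM in Treg WT and at 19.45, 29.68 and 23.32 CPM in Treg KO. CD4 WT libraries were at 50.28, 97.61 and 88.86 CPM and CD8 WT libraries at 139, 125.8 and 102.3 CPM, so that the groups did not overlap. It was 2.48-fold lower in Treg than in CD4 in WT (log2 -1.31, SE 0.27, adjusted p = 0.00064) and 4.15-fold lower in KO (log2 -2.05, SE 0.28, adjusted p = 6.44e-06).
The serine synthesis enzymes Psat1 and Psph were also lower. Psat1 was at 142.7 to 194.4 CPM in Treg libraries and at 217.9 to 437.9 CPM in the others (Treg against CD4, log2 -0.90, SE 0.20, in WT and -1.19, SE 0.20, in KO). Psph was at 47.87 to 58.99 CPM in Treg libraries against 59.75 to 118.9 CPM (log2 -0.72, SE 0.22, in WT and -1.12, SE 0.22, in KO). Phgdh, the first enzyme of the same path, was lower in KO (log2 -0.88 against CD4, SE 0.24, adjusted p = 0.00498) and not past the threshold in WT (log2 -0.20, SE 0.24, adjusted p = 0.547).
Of the mitochondrial one-carbon enzymes, Mthfd2 was lower in Treg libraries (242.2 to 314.9 CPM against 336.6 to 676.7 CPM) while Shmt2 was higher (187.7 to 278.6 CPM against 119.5 to 179.7 CPM). Against CD4, Mthfd2 differed by log2 -0.66 (SE 0.18) in WT and -0.92 (SE 0.18) in KO, and Shmt2 by log2 0.86 (SE 0.14) and 0.59 (SE 0.14). Aldh1l2, the third enzyme of this group, was 29.7 ± 5.47 CPM (SD, n = 2) in Treg WT and 7.79 ± 2.37 CPM (SD, n = 3) in CD4 WT (log2 1.90, SE 0.46, adjusted p = 0.00274), and in KO its difference from CD4 did not pass (log2 0.99, SE 0.44, adjusted p = 0.0777). Vldlr, a lipoprotein receptor induced by ATF4, was at 6.69 to 11.06 CPM in Treg libraries and 0 to 7.434 CPM in the others, and passed against CD8 only (log2 1.28, SE 0.52, adjusted p = 0.0439 in WT and 2.31, SE 0.56, adjusted p = 0.00154 in KO), which was not tested as a difference from the comparison with CD4.

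**Figure D2:**
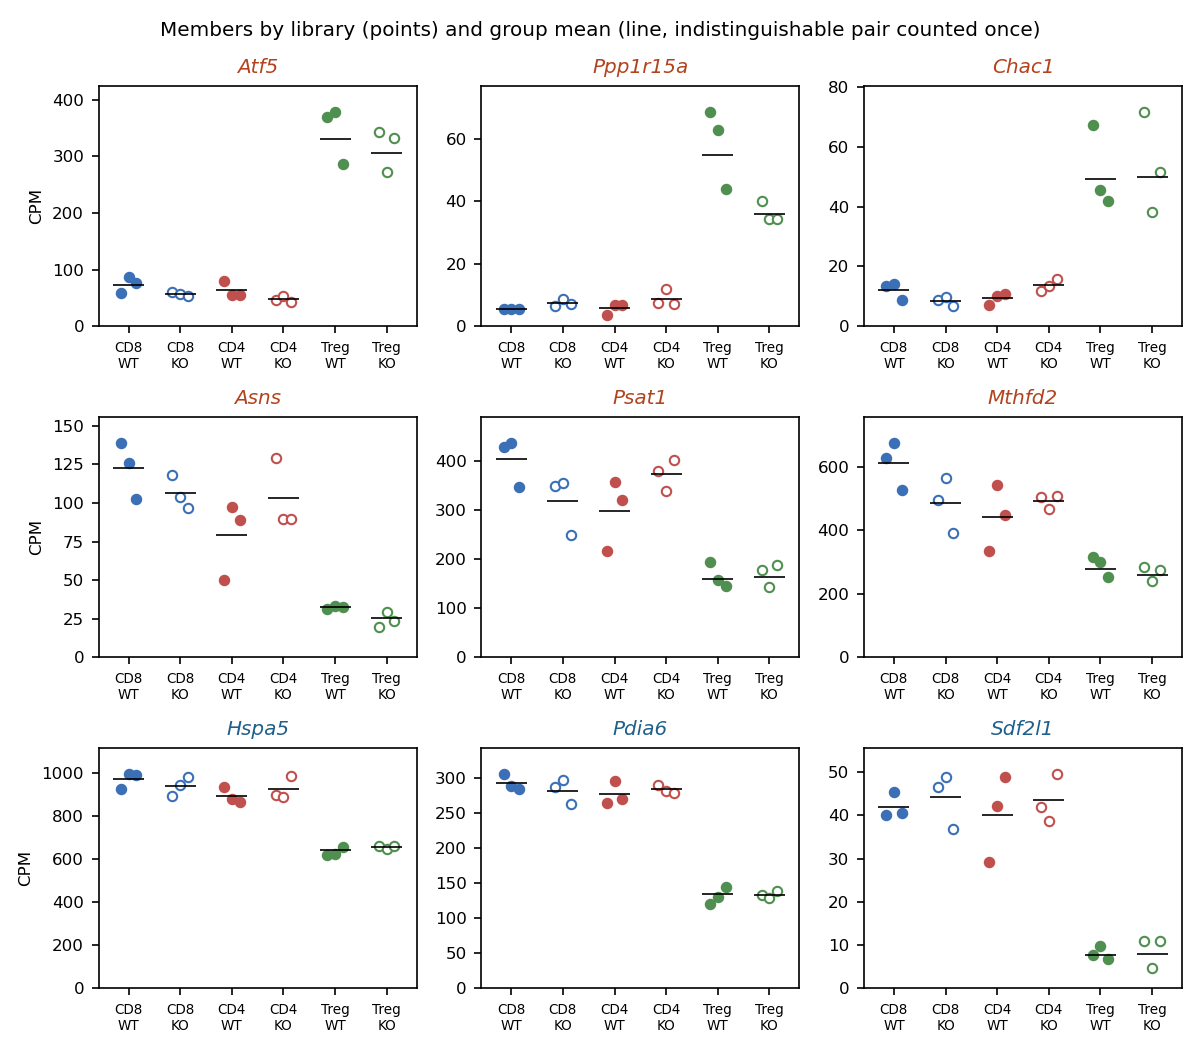
Level of 9 members in CPM (vertical axes from 0) in each library, by cell type label and genotype label, with filled points for WT, open points for KO and a line at the group mean, where an indistinguishable pair of libraries counts once. The Treg points stand apart from all others upward for Atf5, Ppp1r15a and Chac1 and downward for Asns, Psat1, Mthfd2, Hspa5, Pdia6 and Sdf2l1.

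In the endoplasmic reticulum arm, the sensors and their factor did not move as 1 group. Xbp1 (ENSMUSG00000020484, chr11:5520659-5525893), whose mRNA is spliced by IRE1 to give an active factor, was at 41.47, 30.73 and 29.63 CPM in Treg WT and at 26.75, 33.51 and 34.37 CPM in Treg KO, against 64.12 to 100.7 CPM in all other libraries (Treg against CD4 in WT, 2.42-fold lower, log2 -1.28, SE 0.19, adjusted p = 8.66e-06). A 3' tag does not separate the spliced from the unspliced form. Ern1, which encodes IRE1, was at 2.455 to 8.656 CPM over all libraries and passed no comparison. Atf6, the sensor that is cleaved to a factor, was at 51.61 to 72.43 CPM in Treg libraries and 36.64 to 59.75 CPM in the others, and passed in 1 of the 4 comparisons (Treg against CD8 in WT, log2 0.49, SE 0.19, adjusted p = 0.0372), a call that ended without CD8 WT replicate 1 or 2 or Treg WT replicate 1 or 2 (adjusted p up to 0.152 over all alternatives).
The chaperones of the lumen were lower. Hspa5 (ENSMUSG00000026864, chr2:34771970-34777547), which encodes BiP, was at 616.9, 624.3 and 657.5 CPM in Treg WT and at 657.7, 648.2 and 659.2 CPM in Treg KO. It was at 923.9, 994.9 and 989.3 CPM in CD8 WT, 890.7, 940.6 and 981.5 CPM in CD8 KO, 934.8, 880 and 866.1 CPM in CD4 WT and 896.8, 885.8 and 984 CPM in CD4 KO. The gap between Treg and other libraries was wider than the spread inside any group, and the difference from CD4 in WT was 1.4-fold (log2 -0.48, SE 0.09, adjusted p = 0.000112).
Hsp90b1, the HSP90 of the endoplasmic reticulum, was at 297.9 to 324 CPM in Treg libraries and 432.8 to 571.3 CPM in the others (Treg against CD4 in WT, log2 -0.61, SE 0.10). Hyou1, a large HSP70-like chaperone, was at 13.05 to 21.39 CPM over all libraries and passed no comparison.

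Among the cochaperones, Sdf2l1 (ENSMUSG00000022769, chr16:17130138-17132383), which keeps BiP clients from aggregating, differed most. Its level was 7.776, 9.832 and 6.69 CPM in Treg WT and 10.94, 4.787 and 11.05 CPM in Treg KO, against 29.15 to 49.6 CPM in the 12 other libraries. It was 5.07-fold lower in Treg than in CD4 in WT (log2 -2.34, SE 0.31, adjusted p = 1.27e-06) and 5.08-fold lower in KO (log2 -2.35, SE 0.30, adjusted p = 4.73e-07).
Dnajb9 and Dnajc3, J proteins that work with BiP, did not share this. Dnajb9 was higher in Treg than in CD4 in KO (log2 0.90, SE 0.30, adjusted p = 0.0144), a call that ended with DESeq2, with no filter and without CD4 KO replicate 1 or Treg KO replicate 1 (adjusted p up to 0.0696), and Dnajc3 was not past the threshold in any of the 4 comparisons (log2 -0.33 to -0.01).
Of the lectin chaperones of glycoprotein folding, Canx was at 227.9 to 285.1 CPM in Treg libraries and 337.4 to 465.9 CPM in the others and passed all 4 comparisons (log2 -0.79 to -0.53). Calr overlapped (370.7 to 399.1 CPM against 390.5 to 581.5 CPM) and passed 3 of the 4, Treg against CD4 in WT being the exception (log2 -0.18, SE 0.11, adjusted p = 0.191).
The disulfide isomerase Pdia6 (ENSMUSG00000020571, chr12:17266545-17284770) was at 120.5, 130.3 and 145.3 CPM in Treg WT and at 133.7, 129.3 and 138.7 CPM in Treg KO, against 263 to 306.6 CPM in the other libraries, with no overlap (Treg against CD4 in WT, 2.06-fold lower, log2 -1.04, SE 0.11, adjusted p = 9.21e-08). Pdia3 was lower by a smaller margin (log2 -0.72 to -0.42 over the 4 comparisons), and Pdia4 passed against CD8 (log2 -0.44 in WT and -0.42 in KO) and not against CD4.
The secreted stress protein Manf was at 19.44 to 35.36 CPM in Treg libraries and 53.19 to 91.18 CPM in the others (Treg against CD4 in WT, log2 -1.35, SE 0.24). Creld2, another secreted factor, was lower in WT against CD4 (log2 -0.89, SE 0.23, adjusted p = 0.00246) and not past the threshold in KO (log2 -0.35, SE 0.21, adjusted p = 0.176). Of the degradation genes, Edem1, which hands misfolded glycoproteins to degradation, was lower (31.61 to 52.66 CPM against 61.61 to 94.27 CPM, Treg against CD4 in WT log2 -0.94, SE 0.19), and Herpud1, a part of the retrotranslocation complex, passed in none of the 4 comparisons (165.3 to 211.4 CPM against 145.5 to 236.1 CPM).

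Counted by arm, Treg against CD4 in WT gave 8 ATF4 arm genes higher and 4 lower and 0 endoplasmic reticulum arm genes higher and 10 lower, where 39.7% of all genes passed (23.1% higher and 16.6% lower). The median log2 fold change was 0.72 in the ATF4 arm, -0.45 in the endoplasmic reticulum arm and 0.05 over all genes. In KO the counts were 6 higher and 6 lower in the ATF4 arm and 1 higher and 10 lower in the endoplasmic reticulum arm (44.8% of all genes, 26.1% higher and 18.7% lower), with medians of 0.58 and -0.48. Against CD8 in WT they were 9 and 5 in the ATF4 arm and 1 and 12 in the endoplasmic reticulum arm (47.2% of all genes, 27.1% and 20.1%), and in KO 9 and 6 and 0 and 11 (41% of all genes, 23.6% and 17.4%). The comparisons with CD4 and with CD8 share the Treg libraries. Setting Nupr1 at its bound left the ATF4 arm medians at 0.72, 0.58, 0.40 and 0.68. It could not change them, because Nupr1 lay below each median with either value. Against CD4, Psph in WT did not pass without CD4 WT replicate 3 or Treg WT replicate 3 (adjusted p up to 0.0674). Mthfd2 in WT did not pass without Treg WT replicate 3 (adjusted p = 0.0763). Nupr1 in KO did not pass without CD4 KO replicate 1 or Treg KO replicate 2 (adjusted p up to 0.0542). These were calls that ended when 1 library was left out, in some cases any of several. Against CD8 they were Cebpb (without Treg WT replicate 2 in WT, 0.0747, and without CD8 KO replicate 3 in KO, 0.0797), Pdia4 (without Treg WT replicate 2, 0.0614, and without Treg KO replicate 2, up to 0.0795), Trib3, Shmt2 and Vldlr in WT (adjusted p over all alternatives up to 0.0933, 0.12 and 0.117, Shmt2 without CD8 WT replicate 1, Trib3 without CD8 WT replicate 1 or 3 or Treg WT replicate 1 or 2, Vldlr without CD8 WT replicate 2 or 3 or Treg WT replicate 1 or 2), and Nupr1, Psph and Aldh1l2 in KO (adjusted p over all alternatives up to 0.0604, 0.118 and 0.218, Nupr1 without Treg KO replicate 2, Psph without CD8 KO replicate 1 or 2 or Treg KO replicate 2, Aldh1l2 without CD8 KO replicate 1 or 3 or Treg KO replicate 1 or 3).
WT and KO comparisons share no library. Of the 8 ATF4 arm genes higher in Treg than in CD4 in WT, 6 (75%) were higher again in KO, where they made up 100% of those called higher, and 4 of 4 lower genes were lower again. These were Atf5, Ddit3, Trib3, Ppp1r15a, Chac1 and Shmt2, and Asns, Psat1, Psph and Mthfd2. Among endoplasmic reticulum arm genes 9 were lower in both (90% of each list), namely Xbp1, Hspa5, Hsp90b1, Sdf2l1, Canx, Pdia3, Pdia6, Manf and Edem1. Over all genes 19.6% were called higher and 13.7% lower in both. Against CD8 the 9 ATF4 arm genes higher in WT were the 9 higher in KO, and 11 endoplasmic reticulum arm genes were lower in both (91.7% and 100% of the lists), where 19.9% and 14.0% of all genes were called higher and lower in both. The pairs of Treg WT and KO libraries within sampling noise may not be independent samples.

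**Figure D3:**
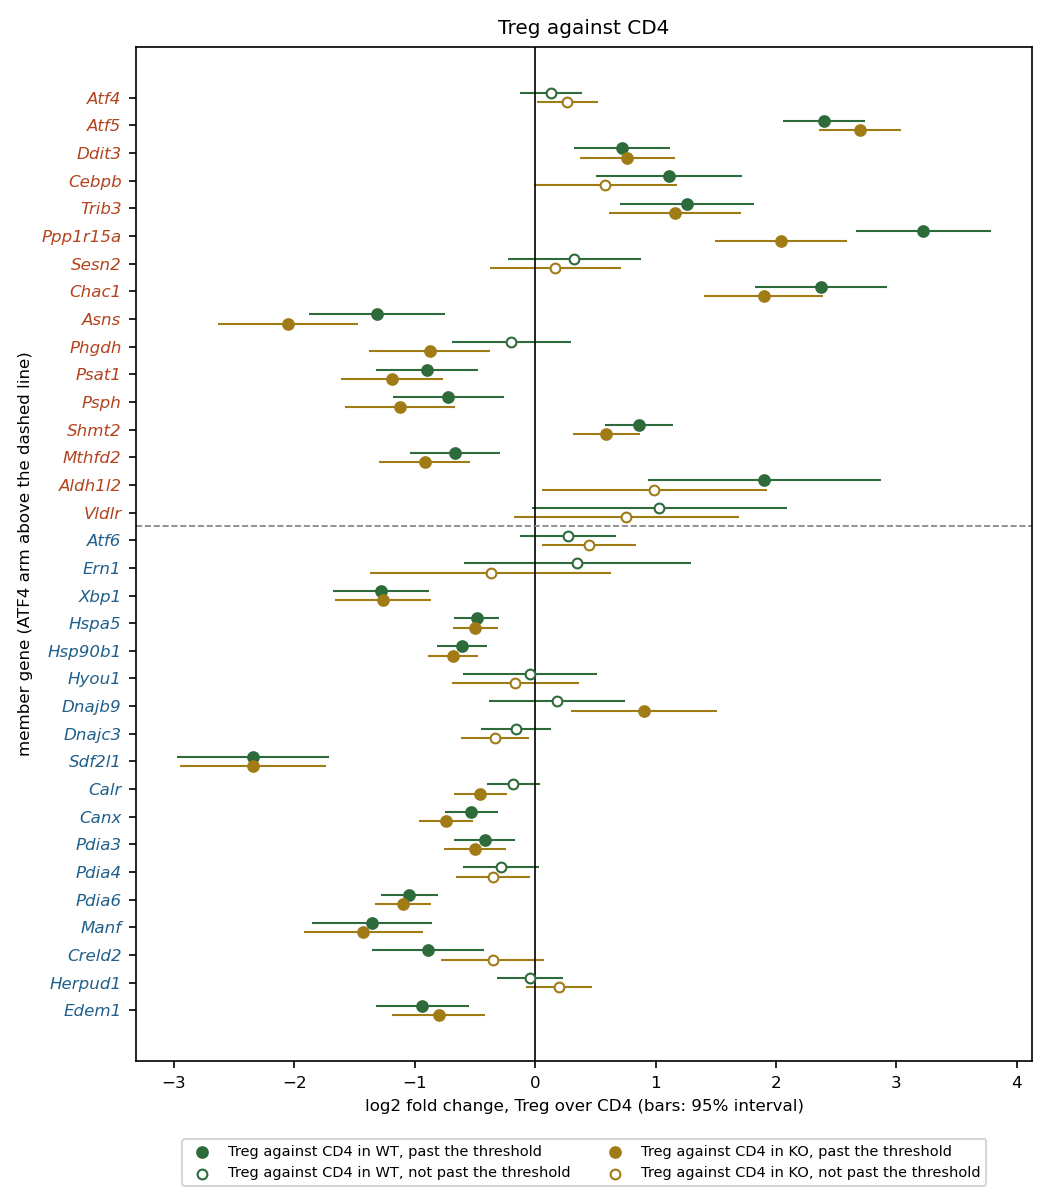
Log2 fold change of Treg over CD4 libraries with its 95% interval for 34 members (Nupr1, which rests on 1 Treg count, is left out), in green for WT and in ochre for KO, filled where the adjusted p is under 0.05. Filled points lie on both sides of 0 above the dashed line (ATF4 arm) and, apart from Dnajb9 in KO, left of 0 below it.

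Markers of other cells were present in all groups. The summed level of 11 B cell markers was 4910 to 5410 CPM in Treg libraries. In CD4 libraries it was 3280 to 6720 CPM and in CD8 libraries 2740 to 5920 CPM. For 12 plasma cell markers it was 4610 to 4860 CPM in Treg against 2730 to 5510 CPM and 2380 to 4880 CPM, and for 10 T cell markers 913 to 1280 CPM in Treg against 984 to 1670 CPM and 1200 to 2150 CPM. Myeloid and dendritic cell markers (12 genes) were higher in the Treg libraries, 60.2 to 80.2 CPM against 23.9 to 47.7 CPM. The mean level per olfactory receptor gene was 0.314 to 0.461 CPM in Treg libraries and at most 0.0103 CPM in the others. The part of these in the differences between Treg and other libraries was not tested. Scaling by total counts alone moved the median of all genes in Treg against CD4 in WT from 0.05 to -0.06, and the share of calls that were higher from 58.3% to 48% there, from 58.2% to 51% in KO, and against CD8 from 57.4% to 48.8% in WT and from 57.5% to 50.2% in KO.

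Between CD8 and CD4 libraries few members passed the test. In WT 10 of the 35 members had an unadjusted p under 0.05 with edgeR, 6 of them in the ATF4 arm. Over all genes 2403 of 12693 did. In WT 15 of 17 ATF4 arm genes had a positive log2 difference (CD8 over CD4, median 0.30, all genes -0.01), and only Shmt2 passed the test (log2 0.46, SE 0.12, adjusted p = 0.0303), where 4.2% of all genes passed (2.8% higher). Shmt2 was at 167.6, 179.7 and 179.5 CPM in CD8 WT and 119.5, 136.8 and 126.5 CPM in CD4 WT, with no overlap, as for 11.1% of all genes in that direction. In the endoplasmic reticulum arm Calr passed (554.1, 581.5 and 522.6 CPM in CD8 WT against 390.5, 456.7 and 482 CPM in CD4 WT, log2 0.32, SE 0.09, adjusted p = 0.0495), and the arm's median was 0.07. Both calls ended without CD8 WT replicate 1 or 2 or CD4 WT replicate 1 or 3 (Calr also without CD4 WT replicate 2), with adjusted p up to 0.116 for Shmt2 and 0.263 for Calr.
In KO 0 of the 35 members passed with edgeR (3.1% of all genes did), 7 had an unadjusted p under 0.05 (14.6% of all genes), and DESeq2 and limma-voom also called 0. The ATF4 arm's median was then -0.20 and that of the endoplasmic reticulum arm 0.07. Vldlr had the lowest adjusted p (3.793, 2.576 and 0 CPM in CD8 KO against 7.434, 3.658 and 7.019 CPM in CD4 KO, log2 -1.55, SE 0.52, adjusted p = 0.119). B cell, plasma cell and erythroid markers had median log2 differences of the sign opposite to the ATF4 arm's median in each genotype. Of these markers 0 passed the test (lowest adjusted p = 0.135 in WT and 0.315 in KO). Markers of 1 cell type can vary together, so their signs are not independent. In WT 0 of 11 tested B cell markers (median log2 difference, CD8 over CD4, -0.50), 2 of 9 plasma cell markers (-0.46) and 1 of 7 hemoglobin and erythroid markers (-0.56) were positive. In KO 11 of 11 (0.42), 8 of 9 (0.37) and 7 of 7 (0.45) were. Of 9 T cell markers, which include both coreceptors, 7 were positive in WT (median 0.35) and 2 in KO (median -0.34). The part of these in the differences between CD8 and CD4 was not tested.

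Loss of Ebi3, as labelled, changed 0 of the 35 members past the threshold in CD8, CD4 or Treg libraries. Over all genes 1 of 12693 passed in CD8 (0.00788%) and 0 in CD4 and Treg. Without CD8 WT replicate 3 the CD8 comparison gave 228 genes higher and 171 lower of 13244, with Ddit3 of the ATF4 arm among the lower ones, and without CD8 KO replicate 1 it gave 2 and 8. With all libraries, DESeq2 and limma-voom called 0 members in each of these comparisons. In CD8, DESeq2 gave an adjusted p to only 5064 genes, so any member outside these was not judged by it. At an unadjusted p under 0.05 there were 9 members in CD8 (15.2% of all genes), 4 in CD4 (6.54%) and 1 in Treg (1.46%).
In CD8 libraries 15 of 17 ATF4 arm genes had a negative log2 difference, with a median of -0.35 against 0 over all genes. Of the 17, 6 had an unadjusted p under 0.05. Atf4 was at 926.5, 983.2 and 816.8 CPM in CD8 WT and at 716.2, 787.6 and 654.3 CPM in CD8 KO (log2 -0.34, SE 0.11, adjusted p = 0.172). Ddit3 was at 80.3, 83.51 and 65.26 CPM in CD8 WT and 60.68, 46.88 and 36.88 CPM in CD8 KO (log2 -0.67, SE 0.18, adjusted p = 0.114). For both genes the groups did not overlap, as for 8.19% of all genes in that direction.
Ppp1r15a and Phgdh had positive values. Ppp1r15a was at 5.521, 5.601 and 5.439 CPM in CD8 WT and 6.501, 8.757 and 7.185 CPM in CD8 KO, also without overlap (log2 0.44, SE 0.33, adjusted p = 0.561; 9.17% of all genes in that direction). The amino acid synthesis genes spanned log2 -0.35 (Psat1) to 0.10 (Phgdh), and the one-carbon genes -0.33 (Mthfd2) to -0.12 (Shmt2). Trib3, Sesn2 and Chac1 had values of -0.41, -0.53 and -0.55, with SE of 0.24, 0.24 and 0.29.
The endoplasmic reticulum arm in CD8 was nearer 0, with 11 positive and 7 negative values and a median of 0.05. Hspa5 had a log2 difference of -0.05 (95% interval -0.21 to 0.11) and Hsp90b1 of 0.09 (-0.08 to 0.27). Pdia3 was lower without overlap (235.4, 267.3 and 257.1 CPM in WT, 211.8, 227.7 and 190.7 CPM in KO, log2 -0.27, SE 0.10, adjusted p = 0.229), and Edem1 was higher without overlap (78.29, 61.61 and 82.07 CPM in WT, 94.27, 86.02 and 83.35 CPM in KO, log2 0.25, SE 0.14, adjusted p = 0.427).

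In CD4 libraries the signs of the ATF4 arm were mostly opposite, with 13 of 17 positive and a median of 0.24. Groups did not overlap for Ppp1r15a, Chac1 and Shmt2 on the higher side (4.89% of all genes) and for Atf5 on the lower side (4.71%). Chac1 was at 7.286, 10.15 and 10.69 CPM in CD4 WT and 11.81, 13.59 and 15.91 CPM in CD4 KO (log2 0.52, SE 0.28, adjusted p = 0.772). Atf5 was at 80.15, 55.57 and 55.12 CPM in CD4 WT and 46.79, 53.31 and 42.11 CPM in CD4 KO (log2 -0.41, SE 0.17, adjusted p = 0.759).
In the endoplasmic reticulum arm the median was 0.04. Dnajb9 was at 17.49, 14.01 and 19.12 CPM in CD4 WT and 8.308, 11.5 and 8.891 CPM in CD4 KO, the largest difference of the arm, and did not pass the test (log2 -0.81, SE 0.25, adjusted p = 0.759). Dnajc3 was higher without overlap (log2 0.20, SE 0.12, adjusted p = 0.772). Herpud1 was at 236.1, 184.6 and 207.5 CPM in WT and 153.9, 194.9 and 159.1 CPM in KO, which overlap (log2 -0.30, SE 0.12, adjusted p = 0.759).
In Treg libraries 13 of 17 ATF4 arm values and 12 of 18 endoplasmic reticulum arm values were negative, with medians of -0.10 and -0.04. Ppp1r15a, whose libraries are given above, was lower in Treg KO without overlap (log2 -0.63, SE 0.24, adjusted p = 0.9996). So were Sesn2, Asns, Phgdh and Psph (4.94% of all genes), none past the threshold. For Sesn2 the gap was less than 1 count, 29.46 CPM in Treg KO replicate 3 against 29.5 CPM in Treg WT replicate 2. In the former 1 count is 1.228 CPM. Overlap was read on single libraries, the indistinguishable pairs included.

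The difference of the Ebi3 effect between CD8 and CD4 was tested directly and passed for 0 members and for 0 of all genes with edgeR, with 13 members and 16.6% of all genes at an unadjusted p under 0.05. DESeq2 and limma-voom also called 0 members. DESeq2 gave an adjusted p to only 2850 genes here, so any member outside these was not judged by it. In the ATF4 arm 16 of 17 differences (CD8 effect minus CD4 effect) were negative, with a median of -0.53, and in the endoplasmic reticulum arm 11 of 18, with a median of -0.06. The lowest adjusted p of the ATF4 arm was that of Psat1 (log2 -0.66, SE 0.23, adjusted p = 0.175). For the other arm it was that of Herpud1 (log2 0.55, SE 0.16, adjusted p = 0.14), followed by Dnajb9 (log2 1.05, SE 0.35, adjusted p = 0.153). Both passed without CD8 WT replicate 3 (adjusted p = 0.0248 and 0.0497), where 403 genes were called higher and 233 lower of 13244 tested. Herpud1 also passed without CD4 WT replicate 2 (adjusted p = 0.0457), where 207 were called higher and 99 lower of 13239, and without CD4 KO replicate 2 the counts over all genes were 27 and 10.

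**Figure D4:**
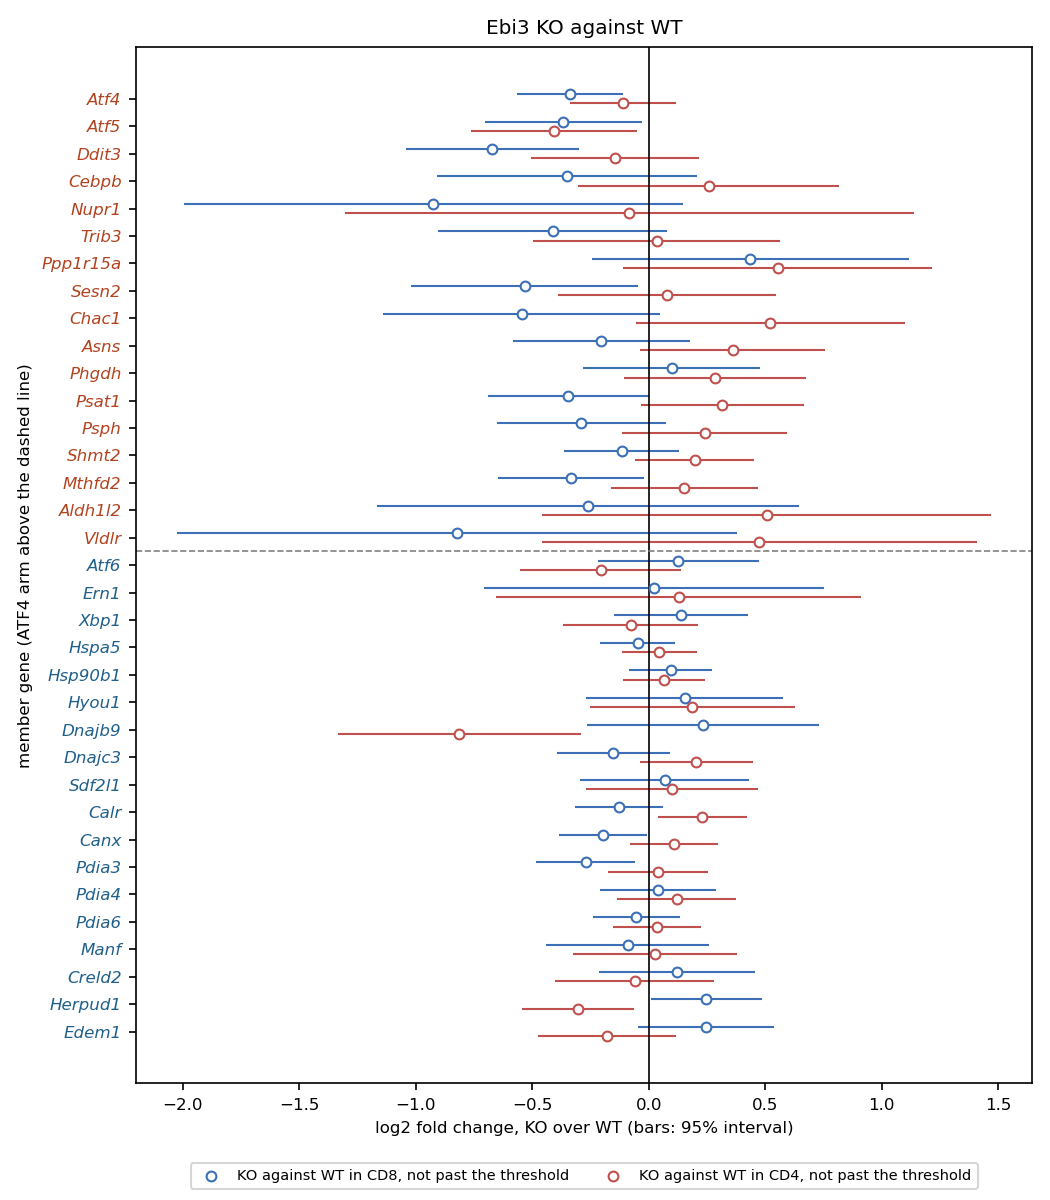
Log2 fold change of KO over WT with its 95% interval for the 35 members in CD8 libraries (blue) and CD4 libraries (red), all open because no adjusted p is under 0.05. Above the dashed line (ATF4 arm) 15 of 17 blue points lie left of 0 and 13 of 17 red points right of it, and below it (endoplasmic reticulum arm) most points lie close to 0.

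The ATF4 arm also varied inside groups, and its genes varied together. The median over genes of the SD within CD4 and CD8 groups was 0.315 (log2) in the ATF4 arm and 0.166 in the endoplasmic reticulum arm. In CD8 KO replicate 3 all 17 ATF4 arm genes lay below their group mean, by 0.43 on average, and the lowest Cebpb value of the series (8.143 CPM) and the only library without a Vldlr count were found there. CD8 WT replicate 3 lay 0.22 below (14 of 17 genes), CD4 WT replicate 1 lay 0.26 below (14 of 17) and CD4 KO replicate 2 lay 0.15 below (14 of 17). The endoplasmic reticulum arm stayed between -0.0725 and 0.0994 of its group mean in all 12 libraries.
These 4 libraries were also those with the most hemoglobin mRNA of their groups, at 1466 CPM summed over 4 hemoglobin genes in CD8 KO replicate 3 (the others 1071 and 981.3 CPM), 1041 CPM in CD8 WT replicate 3 (624.8 and 704.7 CPM), 1498 CPM in CD4 WT replicate 1 (846.6 and 1048 CPM) and 987.2 CPM in CD4 KO replicate 2 (745.6 and 877.4 CPM). Their B cell marker sums were the highest of their groups too, at 5918, 4716, 6719 and 4496 CPM.
Between genotypes B cell, plasma cell, erythroid and T cell markers differed mostly in 1 direction per list, and 0 of them passed the threshold. The lowest adjusted p (edgeR) was 0.179 in CD8 and 0.759 in CD4. Because markers of 1 cell type can vary together, their signs are not independent. In CD8, KO over WT, 11 of 11 tested B cell markers, 9 of 9 plasma cell markers and 7 of 7 hemoglobin and erythroid markers had positive log2 differences (medians 0.49, 0.49 and 0.53) and 9 of 9 T cell markers negative ones (median -0.34). In CD4, 11 of 11 B cell, 8 of 9 plasma cell and 7 of 7 hemoglobin and erythroid markers were negative and 9 of 9 T cell markers positive. With the hemoglobin level as a covariate in a fit of the 12 CD4 and CD8 libraries, the ATF4 arm median was 0.10 in CD8 and -0.03 in CD4. In that fit Atf4 in CD8 was at log2 -0.28 (adjusted p = 0.631) and Ddit3 at -0.31 (adjusted p = 0.724). Mean hemoglobin itself differed between genotypes, at 1170 CPM in KO and 790 CPM in WT in CD8 and at 870 and 1130 CPM in CD4. The covariate therefore cannot be told apart from genotype, and the part of other cells in these differences was not tested. Without CD8 KO replicate 3 the ATF4 arm median in CD8 was -0.20, and without CD4 WT replicate 1 that in CD4 was 0.10. CD8 WT replicate 3 and CD4 KO replicate 2 also lay low, in the opposite genotype of each comparison. The medians without them are not given here, so these values show 1 side only.

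**Figure D5:**
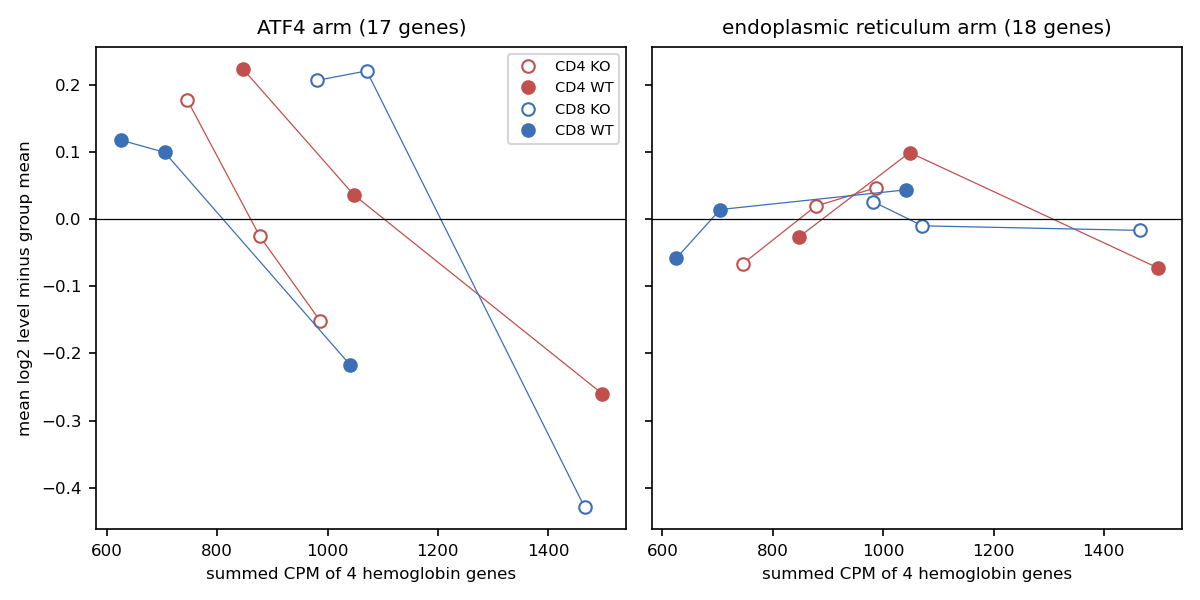
Mean log2 level of each arm in the 12 CD4 and CD8 libraries minus the mean of its group of 3 (vertical axis), against the summed CPM of 4 hemoglobin genes (horizontal axis), with lines joining the libraries of a group, filled points for WT and open points for KO. In the left panel (ATF4 arm) the right-most point of each line is its lowest, and in the right panel (endoplasmic reticulum arm) all points lie between -0.0725 and 0.0994.

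Other genes of these pathways were counted from lists kept apart from the members. Of 29 tested further ATF4 targets, which include amino acid transporters and aminoacyl-tRNA synthetases, 10 were higher and 3 lower in Treg than in CD4 in WT and 6 were higher and 8 lower in KO. The shares of all genes to read these counts and those of the other 4 lists against are 23.1% higher and 16.6% lower in WT and 26.1% and 18.7% in KO. Pck2, mitochondrial PEP carboxykinase (log2 1.13, SE 0.15), Aars, alanyl-tRNA synthetase (log2 0.92, SE 0.13), and Slc38a2, an amino acid transporter (log2 0.74, SE 0.11), were higher in WT, and Stc2, a secreted glycoprotein, was lower (log2 -2.46, SE 0.43).
Of 11 eIF2 kinase and initiation genes 1 was higher and 3 lower in WT (Eif2b5, a subunit of the exchange factor for eIF2, log2 -0.87, SE 0.16), and in KO 0 and 5. Of 29 genes of degradation, entry and export at the endoplasmic reticulum 2 were higher and 12 lower in WT and 2 and 11 in KO. The signal peptidase subunits Spcs2 and Spcs3 were lower (log2 -0.94, SE 0.14, and -1.45, SE 0.24, in WT), and Sec62 of the translocation channel was higher (log2 0.86, SE 0.13).
Of 18 tested further folding genes 1 was higher and 6 lower in WT and 0 and 7 in KO, with Erp44, a disulfide retention factor, at log2 -0.75 (SE 0.18) in WT and -1.03 (SE 0.18) in KO. Of 8 further transducers 2 were higher and 1 lower in each genotype, the higher ones being Nfe2l1 and Nfe2l2, factors of proteasome and oxidative stress responses (log2 1.09, SE 0.16, and 0.70, SE 0.14, in WT).
Between CD8 and CD4 in WT 4 of 29 further ATF4 targets were higher in CD8, where 2.8% of all genes were, the AP-1 related factor Jdp2 (log2 1.18, SE 0.26, adjusted p = 0.00694), the oxidase Ero1l (log2 0.66, SE 0.16), the mTORC1 inhibitor Ddit4 (log2 0.50, SE 0.13) and Gars, glycyl-tRNA synthetase (log2 0.48, SE 0.14), with 0 lower, and in KO Stc2 was lower in CD8 (log2 -1.16, SE 0.25, adjusted p = 0.00621). For Ebi3 KO against WT 0 genes of these 5 lists passed in CD8, CD4 or Treg.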

How the data were processed

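The authors deposited 1 table of unnormalised counts for 55487 Ensembl genes in 18 libraries, and 0 of its columns went unused. Libraries were made with QuantSeq 3' FWD, with unique molecular identifiers, from 500 ng RNA each, per the labels' protocols. The tools were STAR 2.5.3a, Subread 2.0.0 with featureCounts, UMI-tools 1.0.0, cutadapt 2.10 and FastQC, on GRCm38 (mm10), per the submitters' processing notes. Neither annotation release nor strand setting is given in the sources used here. Symbols came from GENCODE M21, which matched 55141 genes.

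In R 4.3.3, edgeR 4.0.16 was run on the counts: filterByExpr with a minimum count of 10, TMM scaling, glmQLFit (robust) on the means of 6 groups with 16 sample units (2 pairs of Treg libraries, whose counts a chi-square test did not separate, using genes of 20 or more summed counts, were each summed), 10 residual degrees of freedom, common dispersion 0.0106, glmQLFTest, and Benjamini-Hochberg adjustment over 12693 genes with a threshold of 0.05. CPM are of TMM-scaled single libraries. The fit was tested on simulated data for KO against WT in CD8 only, with all 18 libraries as separate samples and another dispersion. That setting differs from the reported fit and does not test the Treg comparisons. Alternatives were RLE scaling, total-count scaling (chosen after seeing the data), no filter, DESeq2 1.42.0, limma-voom (limma 3.58.1), other sample sets, a replicate block, a hemoglobin covariate and leaving out each library. The text may name every member and, of each other list, up to 4 genes per comparison with the lowest adjusted p past the threshold. Members and lists were chosen with earlier results of these data known.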

Additional observations from a re-analysis of the deposited data

How the results depend on the processing

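No log2 fold change of a member that passed the threshold reversed under any alternative run. Between CD8 and CD4 in WT, the number of ATF4 arm genes past the threshold was 2 with all 18 libraries as separate samples, 6 with no filter on low counts, 0 with the compared groups alone, 0 with DESeq2 and 0 with limma-voom, and 0 to 4 when each replicate was left out. In the endoplasmic reticulum arm it was 0 with the compared groups alone, RLE scaling, DESeq2, limma-voom or the 12 CD4 and CD8 libraries alone, and 0 to 2 when each replicate was left out. With no filter, which tests 30423 genes, 4 ATF4 arm genes passed for KO against WT in CD8 (Atf4, Ddit3, Psat1 and Mthfd2), 2 for the difference of the Ebi3 effect and 3 for CD8 against CD4 in KO. Leaving out each replicate gave 0 to 1 ATF4 arm genes for KO against WT in CD8 (Ddit3 without CD8 WT replicate 3, log2 -0.77, adjusted p = 0.0291) and 0 to 2 endoplasmic reticulum arm genes for the difference. Over all genes KO against WT in CD8 gave 7 higher and 14 lower with 18 separate samples, 19 and 27 of 5064 genes with DESeq2, 187 and 188 with no filter and 228 and 171 of 13244 without CD8 WT replicate 3, against 0 and 1 with all replicates. The difference gave 311 and 252 with no filter and 14 and 5 of 2850 genes with DESeq2. It gave 403 and 233 without CD8 WT replicate 3 and 207 and 99 without CD4 WT replicate 2, against 0 with all replicates. The cause of these changes was not tested. The replicate block was fitted with all 18 libraries as separate samples, so it is read against that setting: 3 ATF4 arm genes passed for CD8 against CD4 in WT with the block and 2 without it, and over all genes KO against WT in CD8 gave 1 higher and 11 lower with the block and 7 and 14 without it. Same-numbered samples deviated together with correlations of -0.34 to 0.307, not all over 0.1 in any comparison, so the numbers were not taken to pair them. Depth limits Nupr1, Vldlr and Ern1, whose values in Treg libraries lie near the floor of 3 counts.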
